A study of Mus musculus with 5 samples.

Results

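TCF/LEF factors, β-catenin and the Groucho/TLE corepressors are the nuclear end of canonical WNT signalling, and their 9 genes (Lef1, Tcf7, Tcf7l1, Tcf7l2, Ctnnb1, Tle1, Tle2, Tle3 and Tle4) were followed in sorted mouse hair follicle stem cells. The genes were taken by symbol from a table of 55357 genes. Each had at least 76.4 estimated reads in every library, and all 9 passed the filter on low counts. TCF/LEF proteins bind DNA through a shared HMG box and have little activity of their own. Without β-catenin they recruit TLE proteins and keep targets silent, and β-catenin that reaches the nucleus displaces TLE proteins and brings in coactivators. In the resting bulge, where hair follicle stem cells are held quiescent, Tcf7l1 (TCF3) and Tcf7l2 (TCF4) are the TCF factors known for repression, while Lef1 is known from the hair germ, matrix and precortex of growing follicles.

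Both groups came from Ring1a-/-, Ring1bflox/flox mice treated on the skin with 1% RU-486 daily for 10 days from postnatal day 50, and skin was taken at day 75, 15 days after the treatment ended. The 2 Control libraries (replicates 1 and 3) carried no Cre. The 3 PRC1 i2KO libraries (replicates 1, 2 and 3) also carried K15-CrePR1, a Cre under a keratin 15 promoter that RU-486 activates. Both groups thus shared the Ring1a-/- genotype, and the comparison is of Ring1b deletion plus Cre against neither. Flow sorting kept CD34-positive cells with high α6-integrin that carried EpCAM and lacked Sca1, and 50000 cells gave the RNA of a library.

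Library totals ran from 8270419 to 32463173 estimated reads. Separate animals are not stated for the libraries, and p-values therefore reflect only the spread among these 5 samples, and that spread may be technical. Levels of Rnf2 (the Ring1b gene) were 57.7 to 67.9 CPM (counts scaled to library size) in Control and 46.6 to 50.2 CPM in PRC1 i2KO. Those of Ring1 (the Ring1a gene) were 27.5 to 30.3 CPM in Control and 19.6 to 28.6 CPM in PRC1 i2KO. Reads outside a deleted exon do not check either deletion. The sorted cells of the 2 groups differed in their markers. Cd34, a gate marker, read 1548 and 1697 CPM in the controls but 11.0, 12.3 and 37.2 CPM in the i2KO libraries 1, 2 and 3. Of 12 bulge markers 10 fell (83.3%, against 15.1% of all tested genes), while Sox9 and Foxc1 did not pass. The summed level of the 12, mostly Krt15 and Postn, was 21429 to 22421 CPM in Control and 4863 to 6976 CPM in PRC1 i2KO. The sums of 10 upper follicle markers (774 to 1000 against 8579 to 8840 CPM), 10 sebaceous markers (513 to 531 against 3302 to 3920 CPM), 10 suprabasal markers (1275 to 1289 against 2789 to 3985 CPM) and 12 markers of cycling cells (24.5 to 44.8 against 393 to 596 CPM) were higher in PRC1 i2KO. In such bulk samples fewer cells of a type and less RNA per cell cannot be told apart, and the part of these marker shifts in the results on the 9 genes was not tested.

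Promoter windows are shown for 2 of the 4 starts of Lef1, the member with the widest change, and for a start inside Tcf7l2, because these windows differ in the letters that TCF/LEF proteins bind. They are the 250 bases before a RefSeq start (build GRCm38.p6, another build than that of the deposited table), read 5′ to 3′ on the gene's strand. Capitals mark CTTTGA or CTTTGT on either strand (TCAAAG or ACAAAG on the strand shown), the core of the TCF/LEF site.
Lef1 first start, chr3:131110047-131110296, plus strand: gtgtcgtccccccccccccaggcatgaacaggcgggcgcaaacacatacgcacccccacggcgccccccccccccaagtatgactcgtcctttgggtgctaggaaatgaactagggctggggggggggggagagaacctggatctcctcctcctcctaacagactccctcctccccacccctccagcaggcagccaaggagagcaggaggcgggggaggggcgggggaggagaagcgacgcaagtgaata
Lef1 last internal start, chr3:131156044-131156293, plus strand: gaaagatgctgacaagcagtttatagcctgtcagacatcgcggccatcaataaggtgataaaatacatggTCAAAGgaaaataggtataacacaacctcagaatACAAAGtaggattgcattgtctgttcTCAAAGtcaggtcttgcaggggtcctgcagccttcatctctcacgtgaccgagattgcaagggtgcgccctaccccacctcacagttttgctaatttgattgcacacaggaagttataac
Tcf7l2 internal start, chr19:55895071-55895320, plus strand: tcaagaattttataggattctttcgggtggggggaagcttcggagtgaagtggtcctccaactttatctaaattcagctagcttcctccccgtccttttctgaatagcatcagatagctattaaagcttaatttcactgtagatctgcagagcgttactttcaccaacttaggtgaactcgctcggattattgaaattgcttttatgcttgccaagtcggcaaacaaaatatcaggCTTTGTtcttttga
The first Lef1 window lies before the annotated gene, has 66.4% G and C and holds no such core. The last internal window lies within Lef1 and outside its annotated exons, 46.0 kb downstream, has 44.8% G and C and holds 3 cores. The other two Lef1 windows, not printed, hold none: chr3:131110073-131110322, which overlaps the first, and chr3:131112541-131112790, which also lies within the gene and outside its exons. The Tcf7l2 window, also within its gene and outside exons, holds 1 core at 40.8% G and C. RefSeq windows were matched for all 9 members, 16 in all, and 3 of the 16 hold a core, the third being that of Tcf7l1. Among 32851 windows of the same length 27.6% hold one. A match describes the letters of the window and is not a measured binding site.

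Deletion of Ring1b went with an exchange of members within each family, while the gene of β-catenin itself did not pass the test. Lef1 and Tcf7 rose, Tcf7l1 and Tcf7l2 fell, Tle1 and Tle3 rose, and Tle2 and Tle4 fell. In all 8 of the 9 genes passed the quasi-likelihood test of edgeR with an adjusted p under 0.05, 4 higher and 4 lower, where 33.9% of all tested genes passed (18.8% higher and 15.1% lower). In all 9 genes the CPM of the groups did not overlap, as was so for 59.5% of tested genes. The median log2 fold change of the 9 genes was -0.14 and that of all tested genes -0.01.

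**Figure D1:**
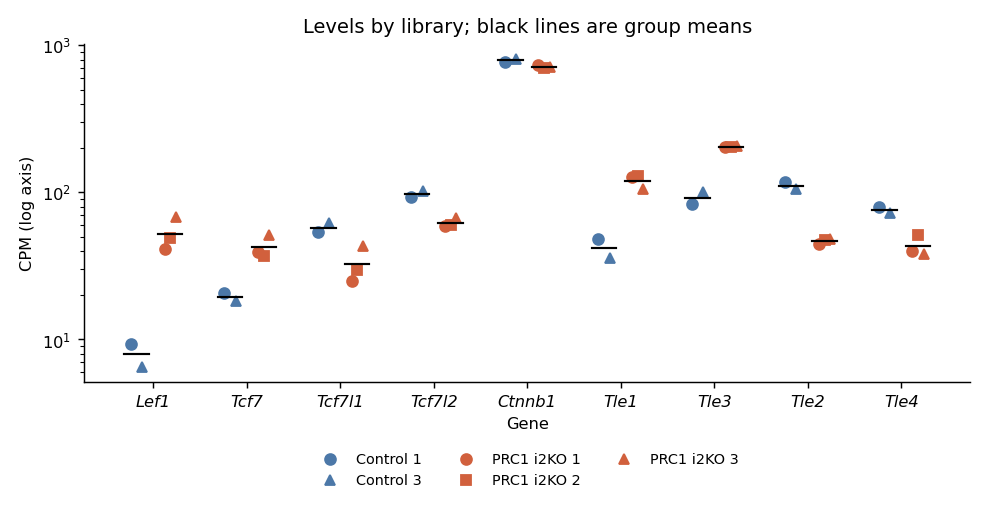
CPM (log axis) of the 9 genes in each library, Control in blue and PRC1 i2KO in red, with marker shapes for replicate numbers and black lines for group means. Lef1 shows the widest gap (6.50 and 9.35 CPM in Control, 40.9 to 67.6 CPM in PRC1 i2KO), and Ctnnb1, the most abundant, the narrowest.

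Lef1 (ENSMUSG00000027985), a TCF factor that mostly activates targets with β-catenin, read 9.35 and 6.50 CPM in the controls (replicates 1 and 3, in this order throughout) against 40.9, 49.1 and 67.6 CPM in PRC1 i2KO (replicates 1, 2 and 3). Every PRC1 i2KO library lay above both controls, with replicate 3 the highest. The rise was 6.89-fold (log2 fold change 2.79, SE 0.27, edgeR adjusted p = 0.000129). With any 1 library left out the log2 fold change lay between 2.49 and 3.02, and the gene passed each time. The controls rest on 76.4 and 209 estimated reads, the fewest of the 9 genes.

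Tcf7 (TCF1, ENSMUSG00000000782), the factor closest to Lef1 in use, whose transcripts can also encode short forms without the β-catenin binding end, stood at 20.6 and 18.3 CPM in Control and at 39.6, 36.9 and 51.3 CPM in PRC1 i2KO. The groups were apart, and replicate 3 was again the highest. Tcf7 rose 2.21-fold (log2 fold change 1.14, SE 0.18, edgeR adjusted p = 0.000972) and passed with any 1 library left out, but not on the deposited TPM (transcript level per length and library size) with a pseudocount of 0.1 (limma adjusted p = 0.0558).

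The genes of the factors known for repression in the bulge were lower. Tcf7l1 (ENSMUSG00000055799) stood at 53.8 and 61.6 CPM in Control and at 24.9, 29.6 and 43.5 CPM in PRC1 i2KO. PRC1 i2KO replicate 3 was the nearest to the controls, as it was for Cd34. Tcf7l1 fell 1.76-fold (log2 fold change -0.82, SE 0.22, edgeR adjusted p = 0.0226). This call rests on single libraries. It was lost when either control was left out (adjusted p = 0.0561 without replicate 1 and 0.137 without replicate 3) or PRC1 i2KO replicate 2 was (0.0806), and it was firmest without PRC1 i2KO replicate 3 (log2 fold change -1.08, adjusted p = 0.000115).

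Tcf7l2 (ENSMUSG00000024985), which can repress or activate, stood at 93.3 and 101.8 CPM in Control and at 59.1, 59.9 and 67.3 CPM in PRC1 i2KO. The spread within each group was smaller than the gap between them. Tcf7l2 fell 1.57-fold (log2 fold change -0.65, SE 0.11, edgeR adjusted p = 0.00135), and passed with any 1 library left out (adjusted p from 0.000193 to 0.0205).

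Ctnnb1 (ENSMUSG00000006932) encodes β-catenin, which serves both in cell junctions and in the nucleus and is controlled mainly through protein turnover. It stood at 775 and 803 CPM in Control and at 735, 698 and 716 CPM in PRC1 i2KO. The PRC1 i2KO libraries all lay below the controls by a narrow margin, and the gene was not called (edgeR log2 fold change -0.14, SE 0.10, adjusted p = 0.312, from 0.237 to 0.585 with any 1 library left out). Protein level and place in the cell were not measured.

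The 4 Groucho/TLE genes, whose proteins bind TCF factors and many other repressors and have no DNA binding of their own, split into pairs. Tle1 (ENSMUSG00000008305) stood at 48.5 and 35.6 CPM in Control and at 126.5, 128.3 and 106.1 CPM in PRC1 i2KO. It rose 2.89-fold (log2 fold change 1.53, SE 0.16, edgeR adjusted p = 8.13e-05). Tle3 (ENSMUSG00000032280) stood at 83.8 and 100.4 CPM in Control and at 203.1, 203.2 and 205.7 CPM in PRC1 i2KO, where the 3 libraries were nearly level. It rose 2.21-fold (log2 fold change 1.14, SE 0.11, edgeR adjusted p = 5.61e-05).

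Tle2 (ENSMUSG00000034771), the most abundant TLE gene of the controls, stood at 117 and 105 CPM in Control and at 44.4, 47.3 and 47.9 CPM in PRC1 i2KO. It fell 2.39-fold (log2 fold change -1.26, SE 0.11, edgeR adjusted p = 2.16e-05), which of the 9 genes was the smallest adjusted p. Tle4 (ENSMUSG00000024642) stood at 79.1 and 72.1 CPM in Control and at 39.8, 51.4 and 38.0 CPM in PRC1 i2KO, with replicate 2 the highest of the 3. It fell 1.75-fold (log2 fold change -0.81, SE 0.15, edgeR adjusted p = 0.00228). Each of the 4 TLE genes passed with any 1 library left out, with an adjusted p of at most 0.0173, that of Tle4.

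**Figure D2:**
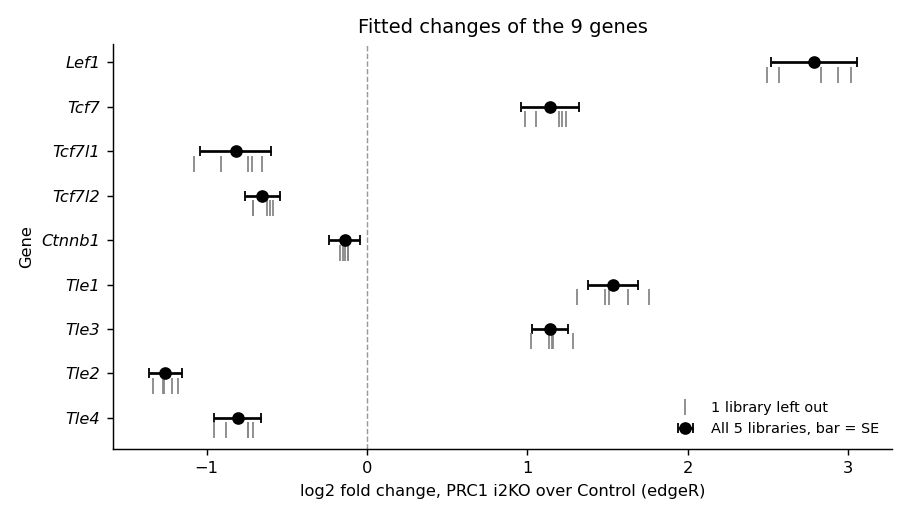
Log2 fold change of PRC1 i2KO over Control for the 9 genes with all 5 libraries (black, bars are SE) and with 1 library left out (grey ticks). All ticks of a gene lie on the same side of 0 as its black point, and Tcf7l1 has the widest ticks of the falling genes, from -1.08 to -0.65.

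TPM is scaled to transcript length, so levels of different genes can be set side by side. In Control the order was Ctnnb1 at 564 ± 32.6 TPM (SD, n = 2), Tle2 at 102 ± 9.26, Tcf7l2 at 71.4 ± 8.64, Tle3 at 51.2 ± 8.34, Tcf7l1 at 43.1 ± 2.52, Tle4 at 29.9 ± 1.94, Tle1 at 26.5 ± 5.11, Tcf7 at 16.4 ± 1.32 and Lef1 at 4.20 ± 1.07. In that order only Tle4 and Tle1 overlapped as neighbours across libraries, and within each control Tle4 was the higher. In PRC1 i2KO it was Ctnnb1 at 476 ± 39.3 TPM (SD, n = 3), Tle3 at 93.9 ± 5.85, Tle1 at 72.1 ± 0.243, Tcf7l2 at 37.5 ± 5.19, Tle2 at 36.9 ± 6.51, Lef1 at 33.1 ± 6.94, Tcf7 at 31.5 ± 6.63, Tcf7l1 at 22.2 ± 6.16 and Tle4 at 15.2 ± 2.60. There every pair of neighbours from Tcf7l2 down to Tle4 overlapped across libraries. The 4 TCF/LEF genes, which were spread in Control, stood closer together. Within each PRC1 i2KO library they still kept the order Tcf7l2, Lef1, Tcf7 and Tcf7l1. Tcf7l1 stood at 19.85, 17.48 and 29.13 TPM in PRC1 i2KO replicates 1, 2 and 3, against 28.23, 27.21 and 39.17 TPM for Tcf7. On this scale the median tested gene moved by -0.13 (log2), and differences of single genes depart from the CPM fit by their own amounts. For Lef1 the log2 fold change was 2.71 with a pseudocount of 1 and 2.95 with 0.1, and for Tcf7l2 it was -0.92 and -0.93.

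The balance within the TCF/LEF family was read as shares of the summed TPM of its 4 genes, with no test. Lef1 and Tcf7 made up 17.3% and 13.4% of the sum in Control replicates 1 and 3 and 52.1%, 51.3% and 52.5% in PRC1 i2KO replicates 1, 2 and 3. The share of Lef1 alone went from 3.14% ± 1.00 (SD, n = 2) to 26.6% ± 0.503 (SD, n = 3), and that of Tcf7l2 from 52.8% ± 2.97 to 30.4% ± 2.04. The 3 PRC1 i2KO libraries agreed closely in these shares although their sums differed. The sum was 129 and 141 TPM in Control and 112, 108 and 153 TPM in PRC1 i2KO, so the groups overlapped in the family's total. As a log2 ratio, Lef1 plus Tcf7 over Tcf7l1 plus Tcf7l2 was -2.26 and -2.69 in Control and 0.12, 0.07 and 0.14 in PRC1 i2KO.

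The TLE family showed the same form. Its summed level was 215 and 204 TPM in Control and 210, 221 and 223 TPM in PRC1 i2KO, with overlapping groups, while by CPM, which favours long transcripts, the sum was higher in PRC1 i2KO (398 to 430 against 314 to 329 CPM). Tle1 and Tle3 gave 35.0% and 39.2% of the TLE sum in Control and 79.2%, 72.4% and 76.9% in PRC1 i2KO. The share of Tle2 fell from 48.6% ± 2.57 (SD, n = 2) to 16.9% ± 2.55 (SD, n = 3), a description with no test. Per TPM of TCF/LEF transcript there was 1.67 and 1.44 TPM of TLE transcript in Control and 1.87, 2.05 and 1.46 TPM in PRC1 i2KO, so those ratios overlapped too. Per 100 TPM of Ctnnb1 there was 23.8 and 24.1 TPM of TCF/LEF transcript in Control and 21.5, 24.0 and 33.3 TPM in PRC1 i2KO. The log2 ratio of summed TLE to Ctnnb1, in contrast, did not overlap between the groups. On TPM the gap was narrow, with -1.33 and -1.53 in Control against -1.31, -1.02 and -1.04 in PRC1 i2KO. On CPM the ratio was -1.24 and -1.36 in Control against -0.83, -0.70 and -0.85 in PRC1 i2KO. The difference was not tested.

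**Figure D3:**
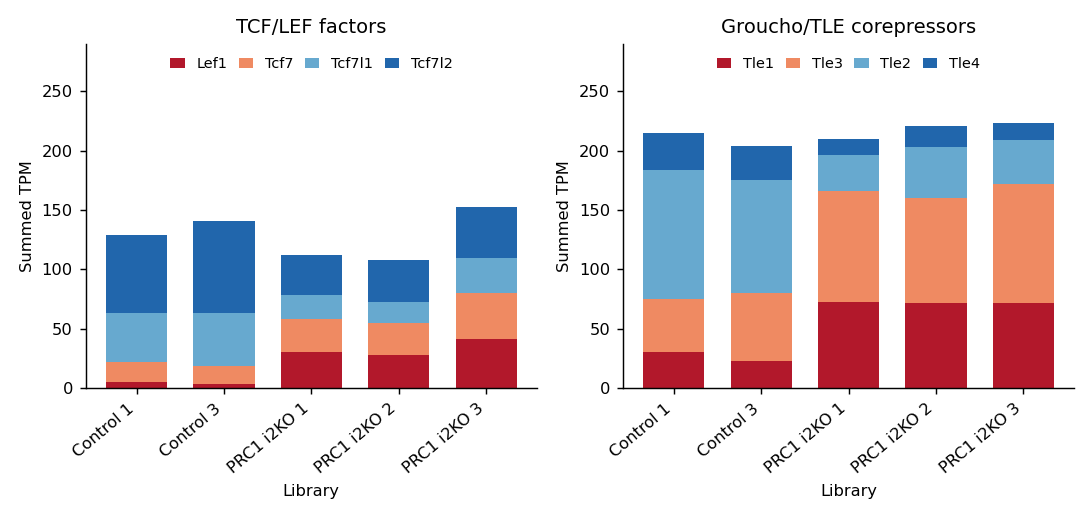
Summed TPM of the 4 TCF/LEF genes (left) and the 4 TLE genes (right) in each library, stacked by gene, with genes that rose in reds and genes that fell in blues. The heights of the bars overlap between groups, and the red part goes from 13.4% to 17.3% of the bar to 51.3% to 52.5% on the left and from 35.0% to 39.2% to 72.4% to 79.2% on the right.

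The deposited reads and TPM also carry the transcript length that the estimate assigned to each gene. Reads per TPM, scaled in each library by the median gene and set to a Control mean of 100%, came to 62.4%, 81.8% and 79.6% for Lef1 in PRC1 i2KO replicates 1, 2 and 3, against 100.05% and 99.95% in the controls. All 3 PRC1 i2KO libraries thus had the estimate of Lef1 placed on shorter transcripts, with replicate 1 the shortest. Of 9920 genes with at least 50 reads in every library, 1.69% had a PRC1 i2KO mean at or below that of Lef1 (74.6%). The other members ranged from 81.8% to 118% over single PRC1 i2KO libraries, with values above and below both controls for Tcf7l1, Tle2 and, within a narrow range, Tle4. The quantity was chosen after the values were seen and was not tested, and a gene-level table does not say which transcripts, or which of the starts shown above, were in use.

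**Figure D4:**
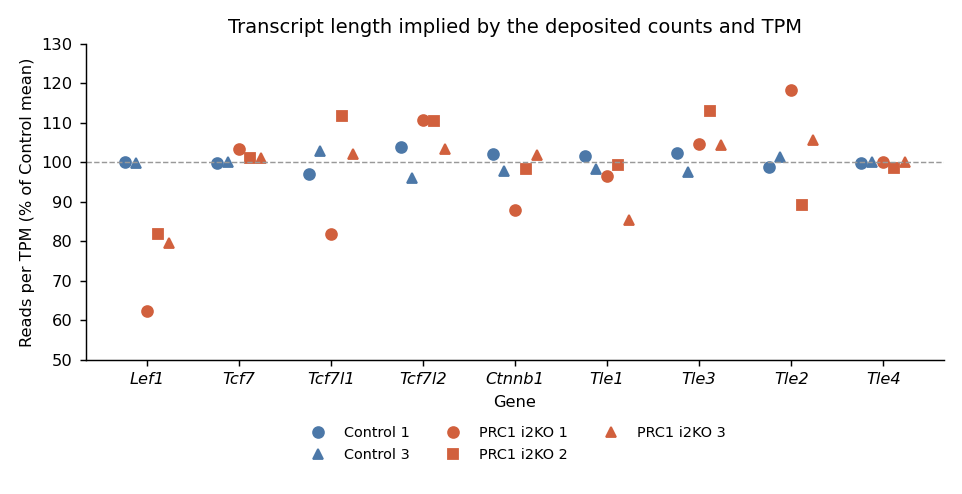
Reads per TPM of each gene and library as a percent of the Control mean, Control in blue and PRC1 i2KO in red. Lef1 is lower in all 3 PRC1 i2KO libraries (62.4% to 81.8%), while Tcf7 and Tle4 stay close to 100% in all 5 libraries.

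Lef1 and Tcf7 are also genes of T cells, and Lef1 of dermal papilla, melanocytes and hair matrix, so markers of these cells were read beside them. The 12 T cell markers summed to 5.91 to 6.65 CPM in Control and 12.4 to 16.8 CPM in PRC1 i2KO. Most of that was Thy1, which is not confined to T cells (4.51 and 6.03 against 9.69 to 14.1 CPM), while Cd3d had 0 reads in all 5 libraries and Cd3e, Cd4 and Trac were at most 0.311 CPM. Lck did not pass (0 and 0.342 CPM in Control against 1.55, 1.36 and 0.684 CPM, edgeR adjusted p = 0.121). Cd3g, Cd4, Cd7, Trac and Trdc had reads only in PRC1 i2KO, at most 0.423 CPM, and Cd8a only in Control replicate 1 (0.246 CPM). Cd3e read 0.123 and 0.031 CPM in Control and 0.311, 0.188 and 0.158 CPM in PRC1 i2KO. Of the 12 markers 3 were tested and 1, Thy1, rose (33.3%, against 18.8% of all tested genes). In the PRC1 i2KO libraries Lef1 and Tcf7 stood at 36.9 CPM or more, and the part of T cells in those levels was not tested. Of 10 fibroblast and papilla markers 4 were tested, 3 fell and 1, Dcn, rose (0.246 and 0 against 3.42, 1.83 and 0.579 CPM). Their sum, mostly Col1a2, was 72.4 to 73.8 CPM in Control and 33.2 to 33.5 CPM in PRC1 i2KO. The sum of 8 melanocyte markers was lower too (157 to 170 against 72.4 to 78.5 CPM). That melanocyte sum was mostly Mitf, which fell. Dct rose (at most 1.99 CPM in Control against 12.9 to 17.4 CPM), as did Kit and Sox10. Of 13 hair matrix and precortex markers, 7 were tested, 2 rose (28.6%, against 18.8% of all tested genes) and 1 fell (14.3%, against 15.1%). Foxn1 (0.369 and 0.187 against 2.90, 3.15 and 2.00 CPM) and Krt27 (0.246 and 0 against 1.87, 1.32 and 1.00 CPM) rose from low levels, and Hoxc13 fell. The sum of the list, mostly Hoxc13, Dlx3 and Msx2, was 71.1 and 96.2 CPM in Control and 42.1 to 69.8 CPM in PRC1 i2KO. Krt72 and Krt73 had 0 reads, and Krt85 was not found among the gene symbols, so the sum covers 12 genes.

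The other genes of the pathway are read against all tested genes, of which 18.8% rose, 15.1% fell and the median log2 fold change was -0.01. Of 16 genes of β-catenin turnover, 4 fell (25.0%) and 12 did not pass, with a median of -0.12. Apc, the scaffold of the destruction complex, measured 163 ± 0.577 CPM in Control (SD, n = 2) against 120.4 ± 3.81 CPM in PRC1 i2KO (SD, n = 3), and Tnks, a tankyrase that marks axin for degradation, from 84.3 to 60.4 CPM (edgeR adjusted p = 0.00581 and 0.00685). Siah1a, a ubiquitin ligase, and Dvl1, which relays the signal from the receptor, fell 1.36-fold and 1.26-fold. Only 2 genes of the list fell when either control or PRC1 i2KO replicate 2 was left out. Once PRC1 i2KO replicate 3 was left out, 1 gene of the list rose.

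Of 12 nuclear coactivators, Smarca4, a chromatin remodeller, rose 1.41-fold (edgeR adjusted p = 0.00285), Pygo1, a β-catenin partner, fell 2.01-fold (0.00767), and 10 did not pass, with a median of -0.21; 16.7% were thus called, against 33.9% of all tested genes. The call of Pygo1 was lost once Control replicate 3 was left out, while 2 genes of the list fell without PRC1 i2KO replicate 1 and 5 without PRC1 i2KO replicate 3. Of 16 corepressors and TCF regulators, 2 rose, 1 fell and 13 did not pass (18.8% called, against 33.9% of all tested genes), with a median of -0.01. Hipk2, a kinase that phosphorylates TCF/LEF proteins, rose 2.01-fold, at 32.6 ± 2.39 CPM (SD, n = 2) against 65.7 ± 9.90 CPM (SD, n = 3) and an edgeR adjusted p of 0.000707. Hdac2, a histone deacetylase, rose 1.44-fold, and Ctnnbip1, which blocks the binding of β-catenin to TCF, fell by 0.46 on the log2 scale. The call of Ctnnbip1 was lost when Control replicate 3 or either of PRC1 i2KO replicates 1 and 2 was left out, and without Control replicate 1 only 1 gene of the list rose. Tle5, the short TLE relative, stood at 130 ± 20.2 CPM and 118 ± 7.25 CPM and did not pass (edgeR adjusted p = 0.400).

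Adherens junctions also hold β-catenin. Of 11 adherens junction genes, 5 rose (45.5%, against 18.8% of all tested genes), 2 fell (18.2%, against 15.1%) and 4 did not pass. Their median log2 fold change was 0.24. The list is of junction genes in general, and not all of them encode direct partners of β-catenin. Cdh1 (E-cadherin) rose 1.66-fold, at 563 ± 11.4 CPM in Control (SD, n = 2) against 933 ± 62.6 CPM after deletion (SD, n = 3) and an edgeR adjusted p of 0.000704, and Nectin4, an adhesion molecule, rose 7.15-fold. Afdn, which links nectins to actin, fell 2.03-fold, and Ctnnal1, a relative of α-catenin, fell 1.48-fold. Jup (plakoglobin), the closest relative of β-catenin, was not called (edgeR log2 fold change -0.07, adjusted p = 0.652). The number that rose was 3 without Control replicate 1 and 2 when Control replicate 3 or either of PRC1 i2KO replicates 1 and 2 was left out.

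Of 20 WNT target genes outside the 9, 18 were tested, of which 10 rose (55.6%, against 18.8% of all tested genes), 2 fell (11.1%, against 15.1%) and 6 did not pass, with a median log2 fold change of 0.71. Tnfrsf19, a receptor of the TNF family, rose 31.3-fold, at 3.42 ± 0.215 CPM in Control (SD, n = 2) against 105.7 ± 12.2 CPM after deletion (SD, n = 3) and an edgeR adjusted p of 1.33e-07. Apcdd1 and Sox4 rose 10.5-fold and 4.65-fold. Lgr5, which also marks bulge and germ stem cells, fell 2.50-fold, and Axin2, a feedback gene often used to read the pathway, narrowly missed the call (edgeR log2 fold change 0.40, SE 0.14, adjusted p = 0.0519). With Control replicate 1 left out 1 target fell, with PRC1 i2KO replicate 3 left out 4 fell, and on the deposited TPM 6 rose. Many of these genes are also markers of particular follicle cells, and the part of the marker shifts given above in their changes was not tested.

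**Figure D5:**
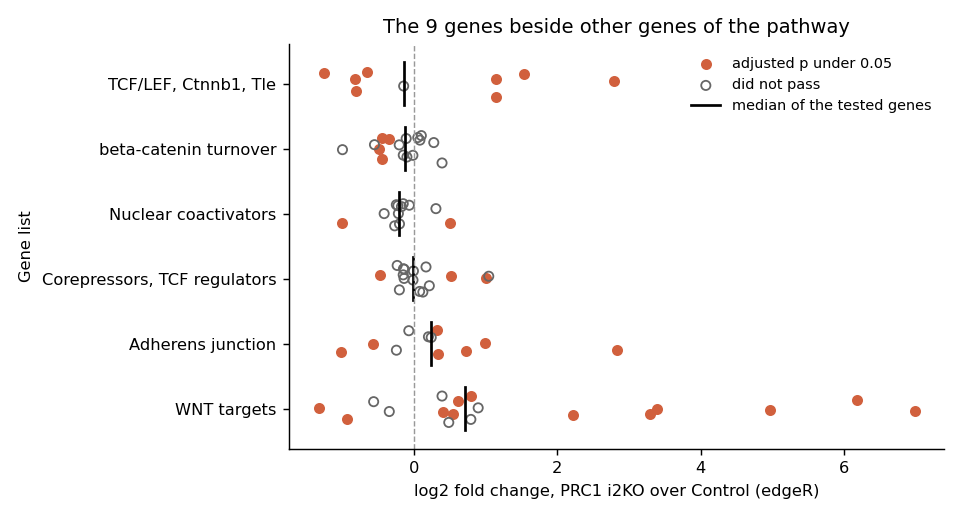
Log2 fold change of each tested gene of 6 lists, filled where the adjusted p was under 0.05, with a black line at the median of each list. The 9 genes fall on both sides of 0 around a median of -0.14, whereas the WNT targets have a median of 0.71.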

How the data were processed

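RNA was measured by polyadenylate-selected sequencing of sorted hair follicle stem cells, 2 Control and 3 PRC1 i2KO libraries from 50 ng of RNA each. The authors deposited expected counts and TPM for each library, per the file headers. Software named in the submitters' processing notes is STAR 2.7.9a, DESeq2 1.38.2 and RSEM 1.3.3, with build mm39 and no roles; annotation and strandedness: not given in the sources used here. Groups and replicate numbers come from the sample titles; the control called replicate 3 carries another number in its description. Expected counts share reads between similar genes, so values of close paralogs are uncertain.

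Rounded counts entered edgeR 4.0.16 under R 4.3.3 (filterByExpr, TMM factors, robust quasi-likelihood F test, genotype only, all 5 libraries), with Benjamini-Hochberg adjustment over 15665 genes. CPM uses the same scaling, and SE is the log2 fold change divided by the square root of F. Alternatives used DESeq2 1.42.0, limma 3.58.1 on log2(TPM + 1) or log2(TPM + 0.1), other filters and scaling, a replicate block, and leaving out each library. Replicates differed by more than counting noise (9.8 to 39.0 chi-square units for each degree of freedom), and none were merged. Members, gene lists and tests were chosen with earlier results of these data known. Named genes are the 9 members, up to 4 called genes of each list with the smallest adjusted p, markers, and for Lef1 and Tcf7l1 the 3 genes with the nearest profile; Jup, Axin2 and Tle5 were named after their values were seen. Promoter windows come from RefSeq (GRCm38.p6).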

Additional observations from a re-analysis of the deposited data

How the results depend on the processing

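Of 117 refits of single members, 110 kept the direction and the side of the threshold, none reversed, and 7 lost a call. Tcf7l1 lost it without Control replicate 1, Control replicate 3 or PRC1 i2KO replicate 2. Tcf7l1 and Tcf7 lost it on TPM with a pseudocount of 0.1 (limma adjusted p = 0.0704 and 0.0558) and on unfiltered TPM (0.0761 and 0.0601). The 2 counts over the members stayed within 1.5 times in all 26 comparisons, at 3 or 4 higher and 3 or 4 lower.

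Over all genes, 5310 were called (2939 higher, 2371 lower), and 3322 without Control replicate 3 (range 3322 to 5856 with any 1 library left out, 1359 to 2757 of them lower). On TPM with a pseudocount of 1, 1635 were higher and 1941 lower, so the share that was higher turned below that which was lower; with 0.1 there were 2767 calls (1403 and 1364), and unfiltered TPM gave 2726 (1286 and 1440). With 1 library left out, the lists ranged from 0 to 1 higher and 2 to 4 lower for β-catenin turnover, 0 to 5 lower for coactivators, 1 to 2 higher and 0 to 1 lower for corepressors, 2 to 5 higher for junction genes, and 1 to 4 lower for WNT targets. The turnover list had 1 higher when scaled by library totals, with no filter or with at least 1 CPM in every library, and 2 lower on TPM with 0.1. Of corepressors 0 were lower with library totals, DESeq2 or any of the 3 TPM settings, and 1, 0 and 0 were higher on TPM with 1, with 0.1 and unfiltered. Coactivators had 0 higher on each TPM setting, 0 lower with 0.1 or unfiltered, and 2 lower with no filter on counts. Junction genes had 2, 1 and 1 higher and 1 lower on TPM with 1, with 0.1 and unfiltered. WNT targets had 6 higher on each TPM setting, 1 lower with 0.1 or unfiltered, and 4 lower with no filter on counts. The cause was not tested. With a replicate block, 2 turnover genes were lower, 0 corepressors were lower and 3 junction genes were higher, with 4421 calls in all and the 4 higher and 4 lower members as before. The numbers are shared by 2 pairs only (correlation of deviations 0.0737 and 0.115), and nothing in the labels says that they pair samples.

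The difference in the log2 ratio of TLE to Ctnnb1 was 0.30 on TPM and 0.51 on CPM, while that of Lef1 plus Tcf7 to Tcf7l1 plus Tcf7l2 was 2.59 and 2.50. The reads per TPM of Lef1, calibrated on genes with at least 500 reads in every library (added after seeing the data), moved by less than the spread between libraries. Depth limits Lef1 most, with 76.4 reads in Control replicate 1.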

Other observations

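Genes of the activated hair germ, the structure in which Lef1 is known to act at the start of hair growth, were read beside the 9 genes. Of 11 germ markers 9 were tested, 4 rose (44.4%, against 18.8% of all tested genes), 2 fell (22.2%, against 15.1%) and 3 did not pass. The 2 that fell were Lhx2 and Bmp2, and Bmp2 stood at 67.8 and 52.7 CPM in Control and at 40.5, 47.2 and 39.4 CPM in PRC1 i2KO. Wnt10b, a WNT ligand, read 0.985 and 0 CPM in the controls but 20.9, 26.3 and 26.3 CPM in PRC1 i2KO. Edar, a receptor of ectodermal appendages, stood at 0.369 and 0 CPM and at 14.8, 11.4 and 8.11 CPM, and Wnt10a at 29.2 and 34.5 CPM and at 60.3, 61.9 and 51.9 CPM. Shh, the germ and matrix signal, was called but low, at 3.21, 3.90 and 1.37 CPM in PRC1 i2KO. Dkk4, a WNT inhibitor of early placodes, had 0 reads in all 5 libraries. The summed level of the list was lower in PRC1 i2KO (753 to 1054 against 1315 to 1346 CPM) because most of it was Lhx2, which fell from 833 and 924 CPM to 193, 207 and 380 CPM.

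The profiles nearest to Lef1 across the 5 libraries, by Euclidean distance of centred log2 CPM among genes averaging 10 CPM or more, were those of Il6ra (0.231), Krt17 (0.317) and Mycl (0.418). Krt17 went from 509 and 308 CPM in Control to 2262, 2219 and 2909 CPM in PRC1 i2KO and shares with Lef1 its highest value in PRC1 i2KO replicate 3. Nearest to Tcf7l1 were Syde1 (0.068), Txnrd2 (0.102) and Ebpl (0.127), each with its highest PRC1 i2KO value in replicate 3. Because these genes were picked for a like profile over the same libraries, a shared highest library is largely set by the choice. The distances describe 5 libraries in 2 groups and carry no test.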
